A study of Mus musculus with 3 samples.

Results

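Arg1-positive macrophages are cells that carry transcripts of the complement component C1q, a mark of tissue macrophages, together with transcripts of Arg1, which encodes the arginine-degrading enzyme arginase 1. They were selected from droplet single-cell RNA counts by transcripts alone. A barcode needed at least 500 UMIs (unique molecular identifiers, so that a captured transcript counts once), at least 200 genes and at most 20% mitochondrial UMIs to count as a cell. A member then needed at least 10 UMIs summed over C1qa, C1qb and C1qc and at least 3 UMIs of Arg1. It could hold at most 1 UMI summed over 6 alveolar macrophage genes (Ear1, Ear2, Plet1, Fabp1, Car4 and Krt79) and none of Cd3e, Cd3d, Cd79a or Ms4a1, which mark T and B cells. This left 84 members among 29513 cells.

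The cells came from mouse non-small cell lung cancer in 3 libraries, 1 for each group, and the group names were PBS, PD-L1 and AI-Exo. The names were not spelled out, and neither strain, age, dose, schedule nor number of pooled animals was stated, so what the groups share beyond the tissue is not known from these sources. The series title concerns exosomes, autophagy and immune tolerance, and its design text concerns immune cells after drug treatment. PD-L1 is also the usual name of the protein made from Cd274. Here PD-L1 always means the library, and the gene is written Cd274.

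Arginase 1 splits arginine into ornithine and urea, and ornithine feeds the synthesis of polyamines and proline. In macrophages the enzyme competes with the inducible nitric oxide synthase encoded by Nos2 for the same substrate. In tumours Arg1-expressing macrophages are known for depleting the arginine that T cells need to divide, and Arg1 is classically induced by interleukin 4 and, in low oxygen or high lactate, by the hypoxia-inducible factors.

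With 1 library per group there was no replicate and no test. Each level below is the sum of a gene's UMIs over the cells of a set in 1 library, per 1000000 UMIs of that sum (CPM), so cells with more UMIs weigh more. Brackets give exact 95% intervals, Poisson for CPM and Clopper-Pearson for shares, and they cover counting error only, not differences between animals, preparations or cells. "Higher" and "lower" describe size: a ratio of at least 1.5 in either direction after 10 CPM was added to both levels. Log2 ratios are on the same scale, which understates differences of low genes, whereas fold values are plain ratios of CPM.

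Unless said otherwise, values given as a triple stand for PBS, PD-L1 and AI-Exo in this order. The libraries held 68386729, 65997942 and 76512500 UMIs, and 9359, 9697 and 10457 barcodes passed as cells, with medians of 4380, 3948 and 4425 UMIs. Of the members, PBS held 49, PD-L1 12 and AI-Exo 23. They summed to 898416, 174012 and 318279 UMIs, so the PD-L1 sums had the widest counting intervals. A member's median depth was 14172, 10996 and 14310 UMIs, deeper than the typical cell of its library. Single cells weighed heavily: the largest member gave 12.2%, 16.4% and 7.91% of the member UMIs. No member's barcode occurred in a second library, although 23 to 33 barcodes were shared between any pair of libraries among all cells.

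The rule for lymphocyte transcripts removed many candidates. Cells with both the C1q and the Arg1 minimum numbered 109, 30 and 58. Of these, 49, 16 and 21 were dropped for a Cd3e or Cd3d transcript, and such cells held medians of 6, 6 and 7 UMIs of the pair at median depths of 20957, 24588 and 22797 UMIs. A further 6, 2 and 12 were dropped for alveolar genes and 5, 0 and 2 for B cell genes. Cells with at least 3 Arg1 UMIs but less than the C1q minimum numbered 125, 27 and 75, so members were a minority of the Arg1-bearing cells in every library. At the edge of the rule lay few cells: C1q macrophages with 1 Arg1 UMI numbered 7, 2 and 5, with 2 UMIs 1, 1 and 0, with 3 UMIs 3, 1 and 0, and with 4 UMIs 2, 2 and 3. The highest member held 209, 131 and 152 Arg1 UMIs, against medians of 28, 8 and 28.

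**Figure D1:**
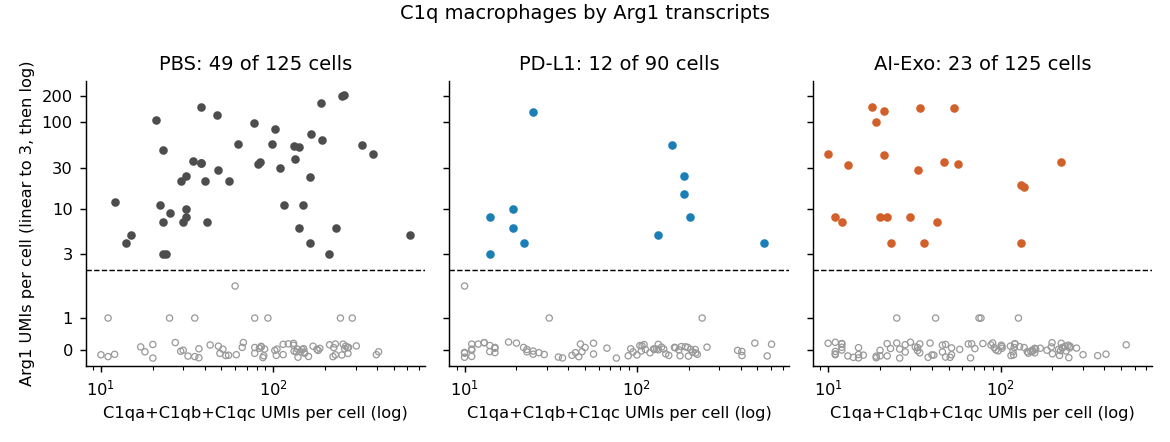
Summed C1q UMIs (x axis) and Arg1 UMIs (y axis) per cell, for all C1q macrophages of each library, with a log x axis and a y axis linear to 3 and log above. Filled points above the dashed line are members and open points are cells with 0 to 2 Arg1 UMIs, spread slightly for view. Members span 3 to 209 Arg1 UMIs in the PBS panel and 4 to 152 in that of AI-Exo, and the PD-L1 panel holds only 12 of them.

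Macrophage identity was checked on 14 marker genes. All 14 had UMIs in the members of PBS and PD-L1, and 13 of 14 in AI-Exo. The typical member carried transcripts of 11, 11 and 10 of the 14, and 46 of 49, 11 of 12 and 21 of 23 members carried at least 7. Their summed level was 15436, 19292 and 10673 CPM. It was below that of C1q macrophages without an Arg1 transcript, at 27246, 24025 and 16425 CPM. C1qa itself, which the rule used, stood at 2212, 3287 and 1150 CPM. Apoe, the lipid carrier apolipoprotein E, was found in 42, 9 and 17 members at 3002, 3396 and 1159 CPM.

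Ms4a7, a membrane protein typical of monocyte-derived and border macrophages, differed from the other markers. It stood at 196 CPM [168 to 227] in PBS, in 24 of 49 members. In PD-L1 it stood at 448 CPM [354 to 559], but 1 of the 12 members held 74.4% of those UMIs and the level without that cell was 136 CPM. In AI-Exo none of the 23 members had a Ms4a7 transcript, which allows up to 9.43 CPM (3 counts), although 65 of 97 Arg1-negative C1q macrophages of the same library had one, at 449 CPM. This holds only for the cells of the rule: with T and B cell transcripts allowed, Ms4a7 was found in AI-Exo too, and its log2 ratio of members over Arg1-negative cells there was -0.94, against -5.52 without them.

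Transcripts of other cell types were measured beside them. The summed level of 8 neutrophil genes was 1690, 908 and 6140 CPM in the members, and Ly6g was at 0 in all 3. In the free RNA of each library (from barcodes of at most 100 UMIs) these genes summed to 2890, 5950 and 7130 CPM. Free RNA is only part of a cell's UMIs and that part was not measured, so the lower member levels do not place these transcripts within background. The 5 natural killer cell genes summed to 39.0, 695 and 6.28 CPM, with 93.4% of the PD-L1 value in 1 cell. The 7 T cell genes summed to 26.7, 172 and 31.4 CPM, with Cd8a at 0 throughout. The 4 platelet genes summed to 100, 0 and 25.1 CPM, in 16 of 49, 0 of 12 and 3 of 23 members. They summed to 14, 12.1 and 3.08 CPM in Arg1-negative C1q macrophages and to 23, 6.53 and 10.1 CPM in free RNA. At least 2 markers of another cell type, each with at least 2 UMIs, were found together in 2, 4 and 1 members. This count left out the genes of neutrophils, alveolar macrophages and red cells. By it a larger part of the PD-L1 members carried such transcripts, whereas the neutrophil genes were highest in AI-Exo. A transcript of Rhox5, Hmga2 or Krt8, used as tumour-like genes, was found in 6, 1 and 1 members. The largest PBS member, of 109818 UMIs with 22 of C1q and 11 of Arg1, held 94.9% of the Rhox5 UMIs of that set. The same cell held 31.5% of the Pgk1 and 25.2% of the Cd274 UMIs, and without it the PBS levels of these genes were 669.5 and 308 CPM. What part these transcripts have in the values below was not tested, except where a value without such cells is given.

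Members were most frequent in PBS. Their share of cells was 0.524% [0.388 to 0.692] in PBS, 0.124% [0.064 to 0.216] for PD-L1 and, in AI-Exo, 0.22% [0.139 to 0.33]. Among C1q macrophages, which passed every condition except that on Arg1, they made up 39.2% [30.6 to 48.3] of 125, 13.3% [7.08 to 22.1] of 90 and 18.4% [12 to 26.3] of 125. The PBS interval lay above both others, and the intervals of PD-L1 and AI-Exo overlapped. Whether this comes from the treatment or from the single preparation behind each library cannot be told apart.

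The order was the same at equal depth. After each C1q macrophage was thinned to 2000 UMIs, which left out 1, 6 and 2 shallower cells, 36.3% [27.8 to 45.4], 11.9% [5.86 to 20.8] and 19.5% [12.9 to 27.6] held an Arg1 transcript, against 45.6%, 16.7% and 22.4% before thinning. T cells, which should lack the gene, held one in 1.45%, 0.205% and 0.505% at the same thinned depth. Their median depths before thinning were 5327.5, 5864 and 5416 UMIs, and those of the C1q macrophages 11077.5, 8091 and 12722. Allowing T and B cell transcripts raised the shares of all cells to 1.1%, 0.289% and 0.44%, with PBS still highest.

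The members were then described against the 68, 75 and 97 C1q macrophages of the same library without an Arg1 transcript, called Arg1-negative here. Because both sets were cut from these cells by their Arg1 counts, this is a description within each library. Of 7776 genes measured, 9.63% were higher in PBS members, 20.3% in those of PD-L1 and 13.3% in those of AI-Exo, and 15.9%, 17.2% and 20.4% were lower. In all 3 libraries together 200 genes (2.57%) were higher and 190 (2.44%) lower. A gene counted in all 3 libraries does not rest on 1 of them.

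The arginine pathway itself was mostly alike. Of 14 measured genes of arginine and polyamine metabolism, 2 were higher in members in all 3 libraries and none lower, and the list median was a log2 ratio of 0.21, -0.24 and 0.12 against -0.09, 0.05 and -0.09 over all genes. The 2 were Slc7a2, a carrier that imports arginine, and Nos2. Slc7a2 stood at 175, 63.2 and 327 CPM in members (18, 2 and 9 cells) against 20.4, 24.2 and 7.71 CPM. Nos2 stood at 31.2, 74.7 and 122 CPM, in 6 of 49, 2 of 12 and 8 of 23 members, against 7.65, 0 and 1.54 CPM. Most members had no Nos2 transcript. Neither call held throughout: without its top cell the log2 ratio of Slc7a2 in PD-L1 was 0.21, and with a pseudocount of 50 that of Nos2 in PBS was 0.49, both below the size used. Arg2, the mitochondrial arginase, had no common direction, with 43.4, 0 and 154 CPM in members against 57.4, 51.1 and 72.5 CPM. Odc1, which makes polyamine from ornithine, stood at 263, 207 and 336 CPM against 124, 186 and 214 CPM and was higher in PBS and AI-Exo. Its log2 ratio in AI-Exo, 0.63, was below that size under 7 alternatives, down to 0.3.

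Hypoxia and glycolysis set members apart in every library. Of 20 genes, all were higher in members in PBS and AI-Exo and 17 in PD-L1, and 17 were higher in all 3 against 2.57% of all genes. The median log2 ratios were 1.77, 0.99 and 1.44. They ranged from 1.58 to 1.87, from 0.76 to 1.29 and from 1.09 to 1.54 over the 19 alternatives run for list medians.

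Among the glycolytic enzymes, Pgk1 (phosphoglycerate kinase) stood at 858 CPM [799 to 921], 759 CPM [635 to 900] and 786 CPM [691 to 889] in members. In Arg1-negative cells it stood at 125, 157 and 179 CPM, and the ratios were 6.86, 4.82 and 4.39. Gapdh stood at 3200, 2454 and 3167 CPM against 1018, 1120 and 1330 CPM. Ldha, which turns pyruvate into lactate, stood at 819, 546 and 694 CPM against 241, 301 and 244 CPM. The member levels lay above the Arg1-negative levels in every library, with no overlap between the 3 values of either set. Slc2a1, the glucose transporter GLUT1, was an exception: it stood at 304, 80.5 and 267 CPM against 25.5, 76.6 and 60.1 CPM, so PD-L1 showed no difference. In PBS 1 cell held 51.6% of the Slc2a1 UMIs, and the level without it was 167 CPM.

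The other members of the list are known targets of low oxygen. Bnip3, a mitophagy receptor, stood at 213 CPM [184 to 245], 132 CPM [83.8 to 198] and 226 CPM [177 to 285] against 30.6, 25.6 and 29.3 CPM, ratios of 6.94, 5.17 and 7.72. Ero1l, an oxidase of the endoplasmic reticulum, stood at 318, 184 and 427 CPM against 25.5, 92.8 and 35.5 CPM. Vegfa, the angiogenic growth factor, stood at 269, 276 and 333 CPM against 66.3, 95.5 and 129.5 CPM. These genes are grouped by function, and the oxygen level of the cells was not measured. Adm, the vessel-dilating peptide adrenomedullin, was uneven, at 150.3 CPM in PBS, of which 62.2% lay in 1 cell, 15.7 CPM in AI-Exo and no transcript in PD-L1.

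The promoters of this list were then read. The motif ACGTG, the core recognised by hypoxia-inducible factors, was searched on both strands in the 250 bases before the start of each gene (RefSeq, GRCm38.p6). It occurred for 13 of 19 genes with an entry (68.4%) and for 4998 of 27025 genes with an entry (18.5%). With its variant GCGTG the counts were 17 of 19 (89.5%) and 41.5%, and Tpi1 and Gpi1 had neither. The palindrome CACGTG counts once on each strand. The list was gathered from genes known for hypoxia and glycolysis, and it was compared with all genes with an entry, measured here or not. Its higher share is thus a property of the list and not a result of these cells. Such a match describes letters and is not a binding site shown in these cells. The windows of Pgk1 and Bnip3 are shown because these were the list's highest ratios by the rule for naming genes, 5′ to 3′ on the gene's strand with the motif matches in capitals. Pgk1 lies on the plus strand at chrX:106186850-106187099 and has 2 matches. Bnip3 lies on the minus strand at chr7:138909507-138909756 and has 5 matches.
Pgk1: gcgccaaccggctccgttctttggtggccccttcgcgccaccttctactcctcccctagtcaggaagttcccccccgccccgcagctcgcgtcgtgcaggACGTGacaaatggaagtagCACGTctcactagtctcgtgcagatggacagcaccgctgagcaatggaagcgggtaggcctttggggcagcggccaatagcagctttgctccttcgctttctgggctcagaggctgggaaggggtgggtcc
Bnip3: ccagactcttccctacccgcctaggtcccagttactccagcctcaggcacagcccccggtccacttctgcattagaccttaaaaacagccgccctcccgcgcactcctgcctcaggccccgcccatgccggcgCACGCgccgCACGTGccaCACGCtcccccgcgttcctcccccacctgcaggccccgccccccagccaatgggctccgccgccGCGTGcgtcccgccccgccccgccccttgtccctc

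The difference in hypoxia and glycolysis was broad over cells. The summed level of the list per cell had a median of 8346 CPM in PBS members (2709 to 25241), 7838 CPM in PD-L1 (1111 to 14663) and 10107 CPM in AI-Exo (1622 to 19965). Arg1-negative cells had medians of 2211, 2252 and 2977 CPM. In PBS the lower quartile of members (5840 CPM) lay above the upper quartile of Arg1-negative cells (4050 CPM), and the same held in PD-L1 (3756 and 3263 CPM) and AI-Exo (4733 and 4169 CPM). Alveolar macrophages (at least 10 UMIs of the alveolar genes) had medians of 2568, 2592 and 3034 CPM and classical monocytes (at least 3 UMIs of Ly6c2, at least 1 of Csf1r and at most 1 of C1q) of 3060, 2318 and 2827 CPM, close to the Arg1-negative cells and below the members.

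**Figure D2:**
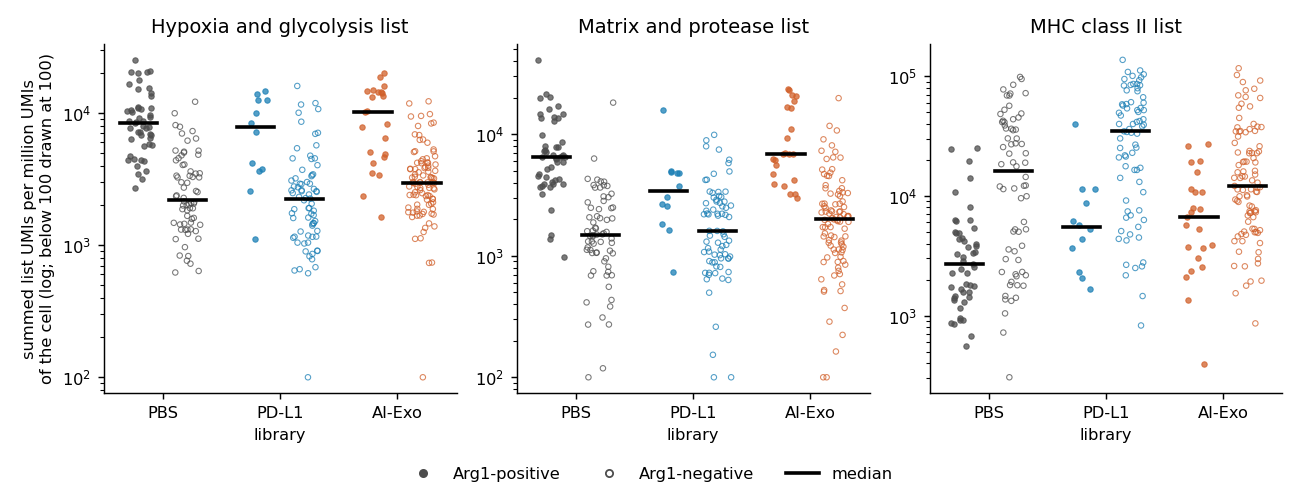
Summed CPM per cell (y axis, log scale, values below 100 drawn at 100) of 3 gene lists in members (filled) and Arg1-negative C1q macrophages (open) of each library (x axis), 1 point per cell with a bar at the median. For hypoxia and glycolysis the member medians of 7838 to 10107 CPM lie above the Arg1-negative medians of 2211 to 2977 CPM, and for MHC class II the order is the opposite.

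Genes of the extracellular matrix and its proteases formed the next group. Of 17 measured, 6 were higher in members in all 3 libraries and 1 lower, against 2.57% and 2.44% of all genes. The median log2 ratios were 0.74, 0.28 and 0.74. Within the single libraries 9, 7 and 10 were higher and 2, 6 and 5 lower, so the list was split in PD-L1. Fn1, the matrix protein fibronectin, stood at 974, 994 and 1995 CPM in members (40 of 49, 10 of 12 and 22 of 23 cells) against 219, 153 and 95.6 CPM, ratios of 4.44, 6.49 and 20.9. Thbs1, the adhesive glycoprotein thrombospondin 1, stood at 1297, 729.8 and 3136 CPM (40, 9 and 23 cells) against 138, 173 and 452 CPM. Both genes were found in 32 of 49, 9 of 12 and 22 of 23 members. Since each gene was in most members, most would hold both without any link between them. After thinning to 2000 UMIs, 61.2%, 50% and 78.3% of members held an Fn1 transcript, against 13.2%, 7.25% and 8.42% of Arg1-negative cells.

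Spp1, Timp1 and Adam8 were also among the higher matrix genes. Spp1, the cytokine-like matrix protein osteopontin, stood at 2657, 1023 and 2470 CPM against 808, 142 and 771 CPM. In PD-L1 1 member held 69.1% of the Spp1 UMIs, and without it the level was 357 CPM. Timp1, an inhibitor of metalloproteases, stood at 73.5, 22.99 and 87.97 CPM against 3.83, 6.72 and 12.3 CPM, in only 17, 2 and 5 members, and without its top cell the PD-L1 log2 ratio was 0.35. Adam8, a cell-surface protease, was steadier, with 308, 459.7 and 434 CPM against 57.4, 86.05 and 107 CPM in 41, 9 and 20 members. Tgfbi, a matrix protein induced by TGF-beta, was the 1 gene lower in all 3 libraries. It stood at 273, 189.6 and 217 CPM against 445, 438 and 506 CPM. With T and B cell transcripts allowed its log2 ratios in PBS and PD-L1 were only -0.4 and -0.41.

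By the ranking over all genes (the smallest ratio of the 3 libraries), the highest were Saa3, Mt2, Cxcl3, Fn1, Pgk1, Thbs1, Bnip3, Adam8, Lamc1 and Cxcl1. Mt2, a metal-binding metallothionein, stood at 577, 356 and 377 CPM in members against 70.2, 37.6 and 39.3 CPM, ratios of 8.22, 9.46 and 9.59. Cxcl3 and Cxcl1, chemokines that attract neutrophils, stood at 814, 121 and 939 CPM against 135, 17.5 and 13.9 CPM, and at 409.6, 678 and 669 CPM against 99.5, 68.6 and 189.6 CPM. Lamc1, a laminin chain, stood at 148, 178 and 97.4 CPM against 19.1, 25.6 and 20.04 CPM, with an AI-Exo log2 ratio of 0.52 once T and B cell transcripts were allowed. Of 20 chemokine genes 4 were higher in all 3 libraries (Ccl6, Ccl9, Cxcl1 and Cxcl3) and 2 lower (Ccl17 and Cxcl16), and the list medians of 0.56, 0.68 and -0.57 had no common sign.

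Cd274, the ligand that inhibits T cells through PD-1, was the only one of 12 checkpoint ligands and inhibitory receptors that was higher in all 3 libraries. It stood at 362 CPM [323 to 403] in PBS, 448 CPM [354 to 559] in PD-L1 and 613 CPM [530 to 705] in AI-Exo, in 36 of 49, 11 of 12 and 21 of 23 members. Arg1-negative cells stood at 126, 187 and 317 CPM. After thinning, 42.9%, 58.3% and 47.8% of members and 17.6%, 13% and 22.1% of Arg1-negative cells held a transcript, against 23.3%, 22.2% and 27.1% of T cells, so the share in Arg1-negative cells was no higher than in T cells.

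Of 18 genes of alternative activation, the state linked to interleukin 4, 3 were higher in all 3 libraries (Fn1, Msr1 and Tgm2) and 2 lower (Mgl2 and Ccl17). Msr1, a scavenger receptor, stood at 362, 287 and 386 CPM against 191, 119.7 and 133 CPM. Tgm2, a protein-crosslinking enzyme, stood at 379.6, 195 and 782 CPM against 150.5, 98.2 and 191 CPM. Mgl2, a lectin, went the other way, at 6.68, 17.2 and 3.14 CPM in 3, 1 and 1 members against 282, 281 and 160.3 CPM. Mrc1, the mannose receptor CD206 often used for this state, stood at 671, 339 and 69.1 CPM against 1281, 235 and 153 CPM and was lower in PBS and AI-Exo only, in PBS with a log2 ratio of -0.92 that became -0.4 with T and B cell transcripts allowed. Retnla, another classic gene of this state, had no transcript in the members of PBS and PD-L1 and 1 UMI in AI-Exo. The list thus split, with its lectins low or uneven in the Arg1-positive cells.

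Genes of lipid and lysosome handling were split as well. Of 19, 6 were higher in all 3 libraries and 2 lower. The higher ones included Cd36, a fatty acid receptor, at 373, 609 and 371 CPM against 145, 110.2 and 122 CPM, and the lysosomal protease gene Ctsl at 1540, 2632 and 889 CPM against 665, 531 and 569 CPM. In PD-L1 67.9% of the Cd36 UMIs and 66.2% of the Ctsl UMIs lay in 1 member. Trem2, a lipid receptor of tumour macrophages, stood at 323, 477 and 151 CPM against 305, 273 and 161 CPM and was higher in PD-L1 only, with a log2 ratio of 0.3 when cells were weighted equally. Gpnmb, a lysosomal membrane protein, was lower by size in all 3, but only 6, 5 and 8 Arg1-negative cells held it, and without the top cell of each set the log2 ratio was 0.09 in PBS and 0.03 in AI-Exo. Pf4, a chemokine made by resident macrophages and platelets, stood at 4133, 2586 and 924 CPM against 1643, 676 and 402 CPM. In PD-L1 76.2% of the Pf4 UMIs lay in 1 member, and without it the level was 735 CPM, close to the Arg1-negative level.

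Genes of antigen presentation through MHC class II were lower in members. Of 12 genes, none was higher and 6 were lower in all 3 libraries (H2-Aa, H2-Ab1, H2-Eb1, H2-DMa, H2-DMb1 and Cd74), against 2.44% of all genes. The median log2 ratios were -1.99, -1.45 and -0.9 and ranged from -2.14 to -1.28, -1.97 to -1.07 and -1.18 to -0.54 over the same 19 alternatives. H2-Ab1, encoding the beta chain of I-A, stood at 404 CPM [364 to 448], 770.1 CPM [645 to 912] and 1119 CPM [1005 to 1241] against 3112, 6360 and 2691 CPM, which is 7.7, 8.26 and 2.41 times lower. Cd74, the invariant chain, stood at 1075, 2190 and 3494 CPM against 6496, 12579 and 6628 CPM. The levels of H2-Ab1 and Cd74 in members were lowest in PBS and highest in AI-Exo, whereas those of Arg1-negative cells were highest in PD-L1. Free RNA held Cd74 at 1400, 1450 and 2000 CPM, so the PBS members lay below it.

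Per cell, the summed class II level had medians of 2679, 5532 and 6639 CPM in members and of 16016, 34597 and 12106 CPM in Arg1-negative cells. The spread was wide and the sets overlapped: members reached 25240, 39864 and 26981 CPM, and Arg1-negative cells began at 305, 827 and 861 CPM. Alveolar macrophages (2469, 2593 and 2649 CPM) and monocytes (1852, 2127 and 2376 CPM) were as low as the PBS members or lower.

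The lowest genes by the ranking included Mgl2, Tmem176b and Tmem176a, Vcam1, Clec4b1 and H2-Eb1. Tmem176b, an ion channel of dendritic cells and macrophages, stood at 23.4, 40.2 and 40.8 CPM in members against 353, 527 and 347 CPM, ratios of 15.1, 13.1 and 8.49 in the other direction. Apoe was 3.5, 2.9 and 2.31 times lower in members than in Arg1-negative cells (10518, 9866 and 2674 CPM). In PD-L1 1 member held 51.1% of the Apoe UMIs, and with T and B cell transcripts allowed the AI-Exo log2 ratio was 0.07. Selenop, a secreted selenium carrier, stood at 253, 316 and 119 CPM against 1036, 721 and 296 CPM. Of 21 genes induced by type I interferon none was higher in all 3 libraries and 3 were lower (Ifit2, Isg15 and Cmpk2). Isg15 stood at 154, 454 and 248 CPM against 308, 707 and 624 CPM, and its PD-L1 log2 ratio of -0.63 was -0.22 at a minimum of 1 Arg1 UMI.

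Autophagy genes, the process the series title names, did not set members apart. Of 19 measured, none was higher or lower in all 3 libraries. Over all genes these shares were 2.57% and 2.44%, so a count of none was near them. The medians were 0.01, -0.01 and 0.13, against -0.09, 0.05 and -0.09 over all genes. The summed level per cell was 3162, 2649 and 3660 CPM in members and 3211, 2943 and 2925 CPM in Arg1-negative cells. Sqstm1, the autophagy receptor p62, stood at 534, 425 and 478 CPM against 527, 742 and 554 CPM and was lower by size only in PD-L1, where the log2 ratio was -0.2 at a minimum of 1 Arg1 UMI. Genes of cell division had medians of -0.29, -1.28 and -1.55. Of 19, 3, 16 and 19 were lower, and 3 (Stmn1, Tyms and Tk1) in all 3 libraries. Mki67, a mark of dividing cells, was found in 8 of 49, 1 of 12 and 2 of 23 members.

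**Figure D3:**
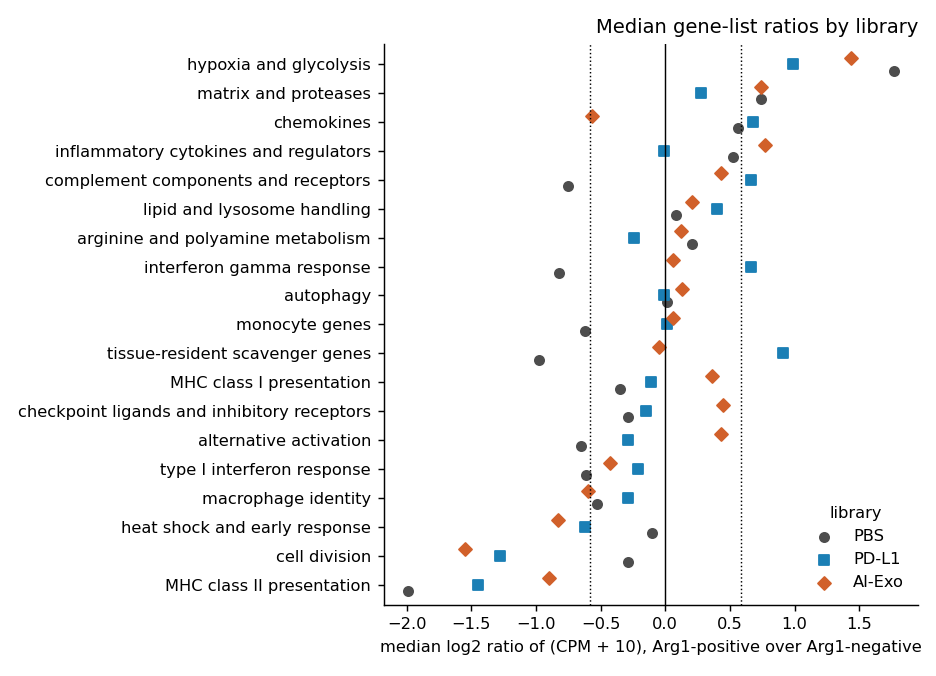
Median log2 ratio (x axis) of members over Arg1-negative C1q macrophages for each gene list (y axis), 1 point per library, with dotted lines at a ratio of 1.5 in either direction. Hypoxia and glycolysis lies to the right in all 3 libraries (1.77, 0.99 and 1.44) and MHC class II to the left (-1.99, -1.45 and -0.9), whereas autophagy lies near 0.

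Within the members, the level of Arg1 varied more than 100-fold per UMI, from 1.0 to 128 Arg1 UMIs per 10000. The 84 members were split by this level into 3 sets of 28, with ranges of 1.0 to 10.5, 10.8 to 25.4 and 26.1 to 128. Median depth was 13237, 17320 and 14245 UMIs. The summed hypoxia and glycolysis level had medians of 5526, 7753 and 12048 CPM in these sets, so it was higher where Arg1 was higher. In PBS the medians were 4697, 8374 and 10402 CPM over 15, 16 and 18 members. In AI-Exo they were 7990, 4844 and 14476 CPM over 6, 8 and 9 members, so there the middle set was lowest. PD-L1 had only 1 member in the highest set. Cells just outside the rule, with 1 or 2 Arg1 UMIs, numbered only 8, 3 and 5 in the 3 libraries. Pooled over cells instead of as a median, their hypoxia and glycolysis level was 4597, 5143 and 3200 CPM, against 11418, 8781 and 11063 CPM in members. In PD-L1 67.4% of the UMIs of these outside cells lay in 1 cell. Over the 3 sets of 28 members, the matrix list medians followed a like order (4326, 5111 and 7638 CPM), and MHC class II had none (3371, 5346 and 2849 CPM). Arg1 and these lists share each cell's total, and no test was made over cells.

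**Figure D4:**
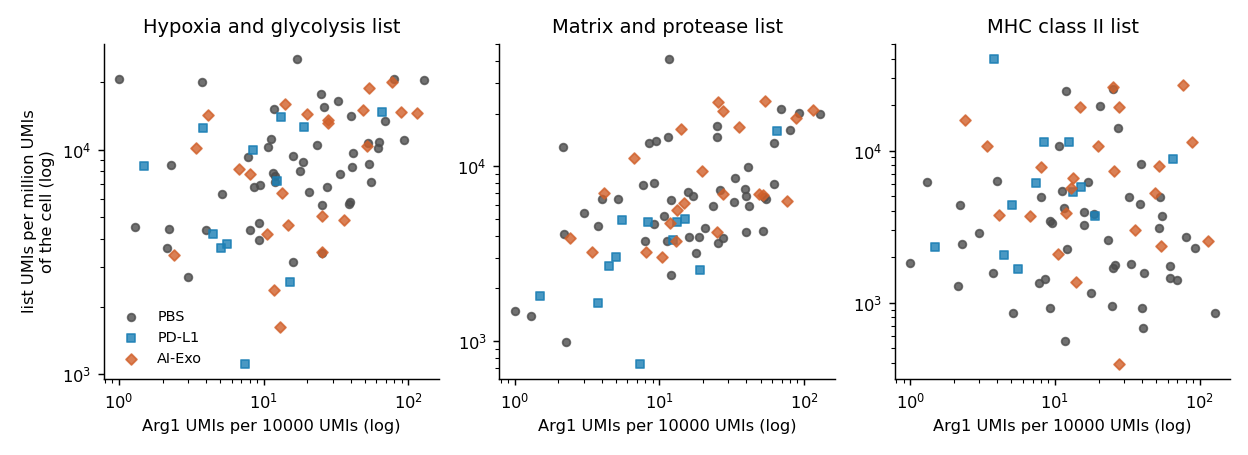
Arg1 UMIs per 10000 UMIs of the cell (x axis, log scale) against the summed CPM of the hypoxia and glycolysis, matrix and protease and MHC class II lists in the same cell (y axis, log scale), 1 point per member with colour and shape by library. For hypoxia and glycolysis the 28 members with most Arg1 have a median of 12048 CPM and the 28 with least of 5526 CPM, with wide scatter in between.

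A minority of members carried genes known from macrophages of the serous cavities. The 7 genes (Gata6, the transcription factor of these cells, with Prg4, Alox15, Selp, Icam2, Cd5l and Timd4) were chosen after their values were seen, so the counts are a description. At least 2 of them were found in 7 of 49 members in PBS (14.3%), 1 of 12 in PD-L1 (8.33%) and 7 of 23 in AI-Exo (30.4%). The same held for 1, 0 and 0 of the Arg1-negative cells, 0, 1 and 0 alveolar macrophages and 1, 0 and 1 monocytes. Their summed level was 107, 46 and 484 CPM in members against 8.93, 17.5 and 17.7 CPM in Arg1-negative cells. Where these cells lay in the tissue was not measured.

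Saa3, an acute-phase serum amyloid protein and the highest gene of the ranking, was concentrated in these cells. Over all members it stood at 1566, 580.4 and 2793 CPM, in 14 of 49, 3 of 12 and 15 of 23 cells, against 10.2, 21.5 and 46.2 CPM in Arg1-negative cells. In the 7 PBS members with at least 2 cavity genes it stood at 11800 CPM and in the 7 of AI-Exo at 7008 CPM, compared with 124 and 482 CPM in the other members of these libraries. Prtn3, a serine protease best known from neutrophil granules, followed the same split, with 144 and 426 CPM against 11.4 and 102 CPM. Hypoxia and glycolysis did not: its medians were 6987 and 6429 CPM in the cells with cavity genes and 8458 and 11759 CPM in the others. Leaving these cells out kept 42, 11 and 16 members.

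Between the libraries the members could be compared only as single sums, and PD-L1 over PBS and AI-Exo over PBS share the PBS members. In PD-L1 over PBS, 18.7% of 7750 genes were higher and 18.4% lower. In AI-Exo over PBS, 12.8% of 7485 genes were higher and 19.3% lower, and in AI-Exo over PD-L1 17.5% of 7489 were higher and 25.6% lower. Many of the most different genes came from 1 cell of the library where they were higher, most often in PD-L1 with its 12 members. In PD-L1 over PBS more than 50% of the UMIs lay in 1 member for 9 of the 10 highest and 5 of the 10 lowest genes. In AI-Exo over PD-L1 this held for 5 of the 10 highest and all 10 lowest genes. In AI-Exo over PBS it held for 5 of the 10 highest and 4 of the 10 lowest. Among them Gzma, a granzyme of lymphocytes, stood at 466 CPM in PD-L1 with every UMI in 1 cell. In AI-Exo every UMI of the cytokine gene Il12b lay in 1 cell.

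Arg1 itself, which the rule used, stood at 2389, 1563 and 3230 CPM, and 48.2% of the PD-L1 UMIs lay in 1 member. The hypoxia and glycolysis list, which marked members within each library, was near the PBS level in AI-Exo and lower for part of its genes in PD-L1. None of its 20 genes was higher and 7 were lower in PD-L1 than in PBS (median -0.34), and none was higher and 1 lower in AI-Exo than in PBS (median 0.03). In AI-Exo over PD-L1, 7 of 19 were higher and none lower (median 0.34 against -0.14 over all genes). Pgk1 was within 1.13-fold between PD-L1 and PBS and within 1.09-fold between AI-Exo and PBS. The largest PBS member held 31.5% of the PBS Pgk1 UMIs. Without it the PBS level was 669.5 CPM, below the 758.6 CPM of PD-L1. Per cell, the medians of the list sum were 8346, 7838 and 10107 CPM. Autophagy genes were near PBS too, with 1 of 19 higher and 2 lower in PD-L1 (median -0.15) and 3 of 20 higher and 1 lower in AI-Exo (median 0.15).

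Interferon genes were higher in the PD-L1 members. Of 19 genes of the type I response, 16 were higher and none lower than in PBS, with a median log2 ratio of 1.39 against 0.01 over all genes. Isg15, a ubiquitin-like protein, stood at 154, 454 and 248 CPM. Its log2 ratio of PD-L1 over PBS was 1.5, but 0.41, below the size used, with at least 6 Arg1 UMIs required. Oasl1, of the same response, stood at 75.7, 408 and 135 CPM, but 52.1% of the PD-L1 UMIs lay in 1 cell and with at least 6 Arg1 UMIs required the log2 ratio of PD-L1 over PBS was -0.73. Ly6a, a surface protein induced by interferon, stood at 108, 644 and 242 CPM, in 24, 8 and 15 members. Of its PD-L1 UMIs, 46.4% lay in 1 cell. Arg1-negative cells of PD-L1 also had more Isg15 (707 CPM) than those of PBS (308 CPM), so the difference was not particular to members. In AI-Exo 9 of 20 type I genes were higher than in PBS and 1 lower (median 0.38).

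Genes of the interferon gamma response and of MHC class II were higher in both libraries than in PBS. For interferon gamma 12 of 18 were higher in PD-L1 and 14 of 18 in AI-Exo (medians 0.97 and 1.1), and for MHC class II 7 of 11 and 8 of 11 (0.79 and 1.1). Gbp2, a guanylate-binding protein of host defence, stood at 47.9, 144 and 311 CPM. H2-Ab1 in AI-Exo members was 2.77 times the PBS level. Both values are ratios to the same PBS members, whose class II level was the lowest of the 3.

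Inflammatory genes were higher in the AI-Exo members. Of 17 cytokines and regulators 10 were higher and 1 lower than in PBS (median 0.89), and 10 were higher and none lower than in PD-L1 (median 1.12). The list summed to 7015, 5695 and 14682 CPM in members and to 4628, 6774 and 7536 CPM in Arg1-negative cells. In alveolar macrophages it summed to 3382, 3855 and 5005 CPM and in monocytes to 4626, 9082 and 6077 CPM. AI-Exo lay above PBS in each of these sets, so the direction was not particular to members. Il1b, encoding interleukin 1 beta, stood at 799 CPM [742 to 860] in PBS, 454 CPM [359 to 566] in PD-L1 and 3893 CPM [3679 to 4116] in AI-Exo, in 32 of 49, 8 of 12 and 19 of 23 members. Il1a stood at 189, 91.95 and 506 CPM, with a log2 ratio of AI-Exo over PBS of 1.37 that was 0.55 when cells were weighted equally. Il6 stood at 20.04, 80.5 and 336 CPM, in 8, 2 and 8 members, with 92.9% of the PD-L1 UMIs in 1 of them. G0s2, an inhibitor of lipid breakdown that is also abundant in neutrophils, stood at 114, 40.2 and 1568 CPM, and its level in Arg1-negative cells of AI-Exo was 1526 CPM. The neutrophil genes moved with these: 6140 CPM in AI-Exo members against 1690 and 908 CPM. Of those genes, S100a8 and S100a9 together made up more than 1% of the UMIs in 4, 1 and 2 members of AI-Exo, PD-L1 and PBS. Without these cells the median of the inflammatory list in AI-Exo over PBS was 0.93. The log2 ratio of Il1b was then 1.92, against 2.27 with them. Of the matrix genes, Fn1 and Thbs1 were 2.05-fold and 2.42-fold the PBS level in AI-Exo. Their log2 ratios were 0.53 for Fn1 in cells of 5000 to 30000 UMIs and 0.56 for Thbs1 with T and B cell transcripts allowed, both below the size used.

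Genes of tissue-resident scavenging were lower in the AI-Exo members. Of 12, 10 were lower and 2 higher than in PBS (median -1.21). Mrc1 stood at 671, 339 and 69.1 CPM and was 9.71 times lower in AI-Exo than in PBS. Stab1, the scavenger receptor stabilin 1, stood at 204, 184 and 25.1 CPM, and Pf4 at 4133, 2586 and 924 CPM. Ccl12, a chemokine for monocytes, stood at 586, 494 and 47.1 CPM. Ms4a7 was low as well, and its AI-Exo level was at least 20.8-fold lower than in PBS, taking 3 counts in the AI-Exo sum as the floor. With T and B cell transcripts allowed the log2 ratio of Ms4a7 in AI-Exo over PBS was only -0.36, so this difference too holds only for the cells of the rule. Mrc1 was also lower in the Arg1-negative cells of AI-Exo (153 CPM) and PD-L1 (235 CPM) than in those of PBS (1281 CPM), whereas Ms4a7 was not (449, 574 and 434 CPM). After thinning, Mrc1 was found in 36.7%, 33.3% and 13% of members.

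In the opposite direction, several genes of PBS and AI-Exo members had no transcript in PD-L1. Marco ranked lowest in PD-L1 over PBS, with a log2 ratio of -4.22. It was found in 8 of 49 PBS and 6 of 23 AI-Exo members, with 55.7% of the PBS UMIs in 1 cell. Olr1 and Ccl24 were 2 others. Olr1, the receptor for oxidised lipoproteins, stood at 134 CPM in PBS (22 members) and 210.5 CPM in AI-Exo (12 members), at least 7.75-fold and 12.2-fold the PD-L1 level with 3 counts as the floor. Ccl24, an eotaxin, stood at 117 CPM in PBS and 62.8 CPM in AI-Exo. With T and B cell transcripts allowed, which raised the PD-L1 members to 28, both genes were found and the log2 ratios of PD-L1 over PBS were 0.56 for Olr1 and 1.19 for Ccl24, so their absence holds only for the 12 cells of the rule. Cxcl3 was also lowest in PD-L1, at 814, 121 and 939 CPM. With T and B cell transcripts allowed its log2 ratio of PD-L1 over PBS was -0.78, against -2.66 without them, and that of AI-Exo over PD-L1 was 0.13, against 2.86.

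**Figure D5:**
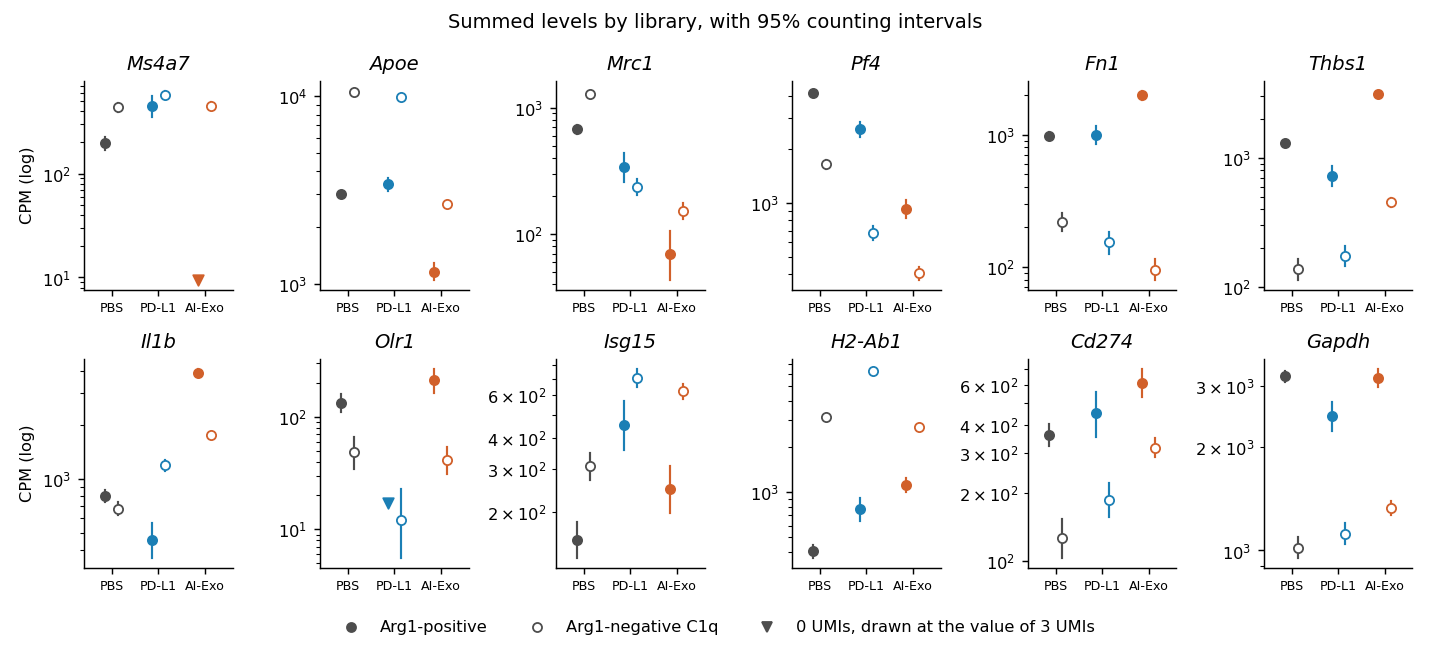
CPM with exact 95% Poisson intervals (y axis, log scale, 1 panel per gene) in PBS, PD-L1 and AI-Exo (x axis), filled points for members, open points for Arg1-negative C1q macrophages and triangles for 0 UMIs, drawn at the value of 3 UMIs. Gapdh lies between 2454 and 3200 CPM in members of all libraries, above every Arg1-negative value, Il1b is highest in AI-Exo (3893 CPM) and Mrc1 lowest there (69.1 CPM).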

How the data were processed

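The deposited files hold raw UMI counts, 1 whole number for each gene in each barcode with no scaling, for 3 libraries of 1 group each. Per the labels' protocols they come from 10x 3′ chemistry version 3.1. Cell Ranger 7.1.0 is named in the file headers and 3.0.2 in the submitters' processing notes. Build, annotation and intron handling: not given in the sources used here. Of 38 duplicated symbols among 32285 genes the first was used.

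Members and the comparison cells were picked by UMI counts as described, with no clustering. Members, gene lists and rules were chosen with earlier results of these data known. Alveolar macrophages and classical monocytes served only as comparison cells. Doublets were scored with Scrublet in scanpy 1.11.5, whose automatic thresholds marked at most 1 cell of a library and so did not work. No cell was removed, and a score of 0.15 served as an alternative. UMIs were summed per set and library and scaled to 1000000. Genes needed a mean of 10 CPM over the sums compared. No test was made, since each group was 1 library. The script making the size calls was tested on simulated counts.

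Genes named were the 10 highest and 10 lowest per comparison at 100 CPM and 50 UMIs or more, leaving out genes of the selection rule and mitochondrial, ribosomal, haemoglobin, receptor segment, sex-linked, Gm-named and Rik-named genes. The highest and lowest members of each list and a set of single genes were also named, and others (Odc1, Gapdh and the cavity genes among them) were chosen after their values were seen. The 17 alternatives listed at the start changed the minimum UMIs of Arg1 and C1q, depth, doublets, neutrophil transcripts, free RNA, pseudocount, filter, ratio and scaling (edgeR 4.0.16 gave TMM factors only). A further 6 were added after seeing the data. Promoter windows came from RefSeq (GRCm38.p6). Tools were Python 3.11.15, numpy 2.4.6, scipy 1.17.1, pandas 2.3.3 and matplotlib 3.10.9. A gene of the matrix list is not reported here.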

Additional observations from a re-analysis of the deposited data

Results flagged for a closer look

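Several differences between members and Arg1-negative C1q macrophages had opposite signs in the libraries. These differences between libraries were not tested, since each group was 1 library. The values are log2 ratios for PBS, PD-L1 and AI-Exo in this order.

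The median of the interferon gamma list was -0.82, 0.66 and 0.06, that of tissue-resident scavenger genes -0.98, 0.91 and -0.05, and that of complement components and receptors -0.75, 0.66 and 0.43. By these medians over genes, members were lower than their Arg1-negative neighbours in PBS and higher in PD-L1. The PD-L1 medians were unsteady over the 19 alternatives. They ranged from 0.0 to 0.86 for interferon gamma, from 0.01 to 1.22 for scavenger genes and from -0.04 to 0.72 for complement. Per cell, the summed scavenger level in PD-L1 had a median of 1138 CPM in members and 1247 CPM in Arg1-negative cells, so the typical member was not higher. Arg2 had ratios of -0.34, -2.61 and 0.99. Mmp12, a macrophage elastase, had ratios of 1.52, -1.18 and 0.34. For the chemokine gene Ccl5 they were -1.03, 2.11 and -2.12, and 76.6% of the PD-L1 UMIs of Ccl5 lay in 1 member. Il1b had ratios of 0.23, -1.37 and 1.15.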

How the results depend on the processing

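Member shares moved only when T and B cell transcripts were allowed, and then to 1.1%, 0.289% and 0.44% in the order PBS, PD-L1, AI-Exo. The number of genes past the size moved with the thresholds. Counts are given as higher and lower for PD-L1 over PBS, AI-Exo over PBS, AI-Exo over PD-L1 and members over Arg1-negative cells in all 3 libraries, in this order. A pseudocount of 50 gave 438 and 426, 355 and 377, 517 and 669, and 88 and 58. A mean of at least 50 CPM gave 507 and 388, 440 and 404, 492 and 600, and 118 and 79. A ratio of 2 gave 519 and 559, 327 and 546, 604 and 944, and 85 and 58. With T and B cell transcripts allowed they were 610 and 502, 631 and 864, and 654 and 1091, with 105 lower in all 3. Without a filter on low genes 2314, 2317 and 3206 were lower in the 3 library comparisons, and 2015 were higher in AI-Exo over PD-L1. A pseudocount of 1 gave 304 lower in all 3. With the top cell of each gene left out, 698 were higher in PD-L1 over PBS, 1099 lower in AI-Exo over PD-L1, and 122 higher and 317 lower in all 3.

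Some log2 ratios changed sign, and the cause was not tested. For PD-L1 over PBS, allowing T and B transcripts gave 0.13 for cell division, -0.04 for Ms4a7, 1.19 for Ccl24 and 0.56 for Olr1. Ms4a7 was -0.39 without the top cell and -0.83 without cells with a tumour-like UMI, and Oasl1 was -0.73 at 6 or more Arg1 UMIs. Complement in AI-Exo over PBS was -0.11 without the cells with cavity genes. In AI-Exo over PD-L1, macrophage identity was 0.09 with T and B transcripts and Isg15 was 0.13 at 6 or more Arg1 UMIs. For members over Arg1-negative cells in PBS, Ccl5 was 0.06 without cells with other-cell markers and 0.08 with T and B transcripts. Gpnmb there was 0.09 without the top cell and 0.52 at 5000 to 30000 UMIs. In PD-L1, T and B transcripts gave 0.0 for interferon gamma, -0.04 for complement, 0.31 for Arg2, 1.3 for Mmp12 and 0.15 for Il1b. Chemokines were -0.18 at 6 or more Arg1 UMIs and -0.2 without the top cell, Ccl5 was -0.39 at 6 or more Arg1 UMIs, and Arg2 was 0.06 at a C1q minimum of 5. In AI-Exo, T and B transcripts gave 0.07 for Apoe and 0.11 for Gpnmb, which was 0.03 without the top cell.

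The hypoxia and glycolysis and MHC class II medians of members over Arg1-negative cells kept their sign in every library under the 19 alternatives run for list medians; the other 4 were run for gene counts or shares only. The PD-L1 values rest on 12 members and 174012 UMIs, many of them on 1 cell. No paired analysis was possible because each group was 1 library.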
